A study of Homo sapiens with 8 samples.

Results

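EPCAM, ESRP1, GRHL2, KRT8, KRT18, KRT19, CLDN3, CLDN4 and CLDN7 are 9 genes that mark simple epithelia, and they are described here in cells of the neuroblastoma line NGP. They were taken by name, as every probe that the platform annotation assigns to them, and all 9 of 9 were found among 21524 annotated genes, with 15 of the 50599 probes that are not control spots. Per the labels, NGP cells were transduced by lentivirus with CFC1 cDNA or with a mock construct and then selected with puromycin, so both groups carry a viral construct and had the same selection. The promoter of the construct, the time after infection and whether cells were cloned do not appear in the sources used here. There were 4 mock arrays and 4 arrays labelled CFC1, numbered 1 to 4 in each group, of total RNA labelled with one dye. The labels do not say whether arrays of one group stem from separate cultures, so p-values reflect array-to-array spread that may be technical.

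Simple epithelia, such as those of gut, gland and kidney, are held together by junctions and share a small set of genes. EPCAM is a surface adhesion protein of such cells. KRT8 pairs with KRT18 or KRT19 to build the keratin filaments of their cytoplasm, and claudins such as CLDN3, CLDN4 and CLDN7 form the strands of tight junctions. GRHL2 is a transcription factor that keeps these genes active, and ESRP1 is an RNA-binding protein that sets the epithelial pattern of splicing. Neuroblastoma arises from the neural crest and is not an epithelial tumour, and several of these genes are known targets of the ZEB and Snail repressors that act in mesenchymal and neural cells.

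The values are deposited logarithms, read here as log2, relative for each probe to an unstated baseline. That baseline lay within the range of the 8 arrays for every probe, since 0 of 50599 probes had all 8 arrays above 0 or all 8 below it. A value therefore compares arrays for 1 probe and gives no level, so whether a member was expressed above background is unknown, and a fold below is a fitted ratio. Differences are arrays labelled CFC1 minus mock arrays, fitted with limma over all 50599 probes, with Benjamini-Hochberg adjusted p-values and a threshold of 0.05. The single probe of the targeted gene did not bear out the label, since it was not higher there. The CFC1 probe lay between -0.03 and 1.10 in the mock arrays and between -0.69 and 0.05 in the arrays labelled CFC1. The groups overlapped, and the difference did not pass (-0.80, SE 0.278, adjusted p = 0.0546). Probe sequences were not used, so whether this probe reads the introduced cDNA is unknown. Directions below rest on the labels alone. Of all probes, 42.1% passed the threshold (20% as higher and 22.1% as lower), and the groups did not overlap in 42.6%.

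The 9 genes did not move together. Of the 15 member probes, 9 passed, which is 60.0% beside 42.1% of all probes: 4 were higher in the arrays labelled CFC1, beside 20% of all, and 5 were lower, beside 22.1%. The shares of all probes include 18606 without a gene symbol, whereas every member probe has one. The members were also chosen with earlier results of these data known. The probes that passed belong to 8 genes, all but GRHL2. Those of EPCAM, KRT8, KRT18 and CLDN7 were lower, and those of KRT19, CLDN3, CLDN4 and ESRP1 were higher. For KRT8, CLDN4 and CLDN7, other probes of the gene did not pass. By gene means, 3 members were higher and 3 lower, beside 29.7% and 28.2% of all genes, and 3 did not pass, among them CLDN4 and CLDN7. The groups did not overlap for 8 of the 15 (53.3%, beside 42.6% of all probes). Of those that passed, 4 differed by at least 2-fold. The matching share of all probes was not counted. For scale, the KRT18 difference of -0.99, just under 2-fold, exceeded that of 82.33% of all probes in size. The median difference was 0.10 over the member probes and -0.13 over all probes, and the median size of a difference was 0.65 and 0.35.

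**Figure D1:**
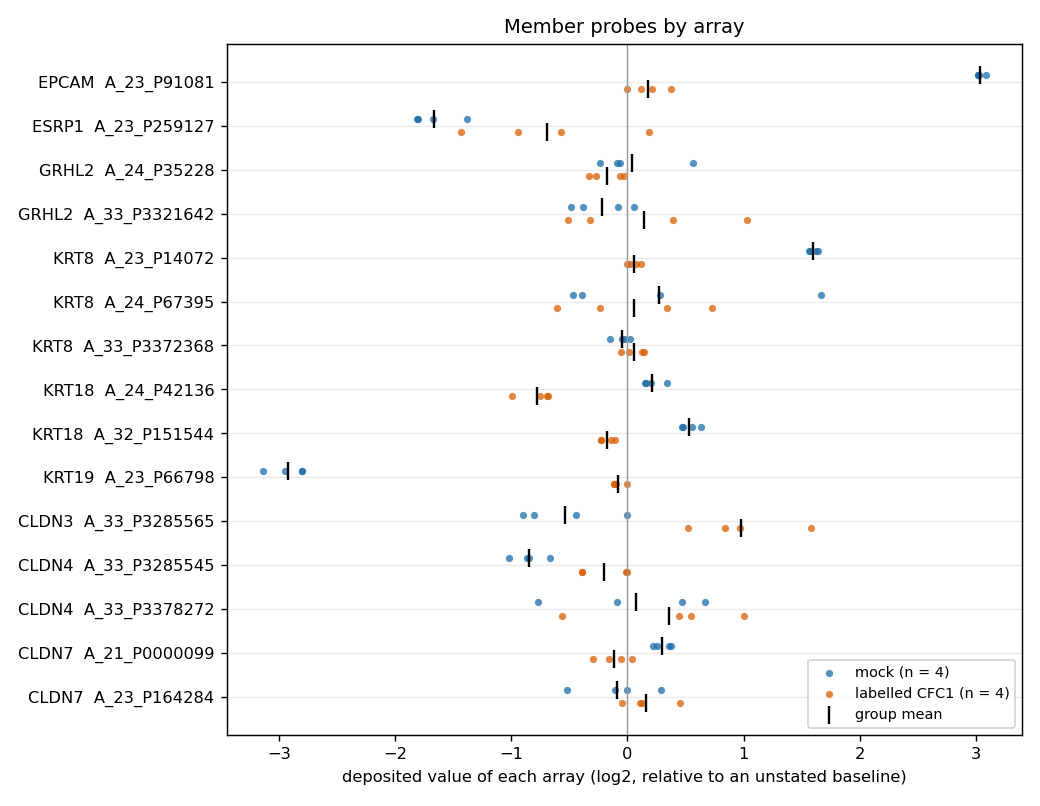
Deposited value (horizontal axis, log2 relative to an unstated baseline) of each of the 15 member probes (rows) in the 4 mock arrays (blue) and the 4 arrays labelled CFC1 (orange), with group means as black bars. EPCAM, KRT19 and the first KRT8 row hold their groups far apart, whereas the groups of ESRP1, of both GRHL2 probes, of the other two KRT8 probes and of 1 probe each of CLDN4 and CLDN7 overlap.

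EPCAM and KRT19 had the largest differences of the 15 member probes, in opposite directions. EPCAM was ahead in size as deposited and after quantile normalization, and KRT19 with arrays centred on their medians (2.88 beside -2.82) or set to E1A control spots (2.94 beside -2.76). The single EPCAM probe (A_23_P91081) read 3.03, 3.02, 3.09 and 3.02 in mock replicates 1 to 4 and 0.21, 0.37, 0 and 0.12 in replicates 1 to 4 labelled CFC1. The mock arrays were all high and nearly alike, and no array labelled CFC1 came near them. The group means were 3.04 ± 0.0344 (SD, n = 4) and 0.17 ± 0.157 (SD, n = 4), so EPCAM was lower in the arrays labelled CFC1 (difference -2.86, SE 0.0814, adjusted p = 1.073e-07), a 7.28-fold ratio. In size this difference exceeded that of 96.85% of all probes. EPCAM encodes a glycoprotein that joins cells through weak homophilic contacts and signals after its cleavage.

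KRT19, the keratin that lacks most of the tail domain, was higher in the arrays labelled CFC1. Its probe (A_23_P66798) read -3.13, -2.80, -2.80 and -2.95 in mock replicates 1 to 4, and -0.11, -0.12, 0 and -0.10 in replicates 1 to 4 labelled CFC1. Here the mock arrays were the low ones, again without overlap. The means were -2.92 ± 0.159 (SD, n = 4) and -0.08 ± 0.0548 (SD, n = 4), and KRT19 was higher in the arrays labelled CFC1 by 2.84 (SE 0.0847, adjusted p = 1.371e-07), a 7.16-fold ratio. For both EPCAM and KRT19 the arrays labelled CFC1 lay near the baseline and the mock arrays far from it. CFC1 replicate 3 read exactly 0 on both probes. Of all probes, 24608 held an exact 0, each in no more than 1 array. Because the baseline is unknown, the values do not show which group departed from untreated NGP cells.

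KRT8, a type II keratin of simple epithelia, was measured by 3 probes that did not behave alike. The probe A_23_P14072 read 1.56, 1.57, 1.64 and 1.62 in the mock arrays and 0.12, 0.03, 0.08 and 0 in the arrays labelled CFC1. These groups did not overlap, and the probe was lower (difference -1.54, SE 0.0472, adjusted p = 1.57e-07), a 2.91-fold ratio. The probe A_24_P67395 scattered from -0.47 to 1.67 in mock arrays and from -0.60 to 0.72 in the other group, and its difference of -0.21 (95% interval -1.45 to 1.02) did not pass (adjusted p = 0.766). Mock replicate 4 alone gave the 1.67, and without it the difference was 0.25. The probe A_33_P3372368, annotated to a non-coding transcript of KRT8, lay between -0.15 and 0.14 in all 8 arrays. Its difference of 0.10 (95% interval -0.05 to 0.26, adjusted p = 0.270) did not pass either.

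Within each array the first KRT8 probe minus the third lay between 1.55 and 1.79 in mock arrays and between -0.10 and 0.07 in arrays labelled CFC1. Exact two-sided permutation tests over the 70 arrangements of the arrays were run on 15 such within-array differences, which were added after the data were seen. They can give no p below 0.029. For this pair of KRT8 probes the shift was -1.65 (exact p = 0.029, 0.048 after adjustment over the 15). The 9 differences that passed all had this smallest p, and many of the 15 share probes. Each adjusted value of 0.048 rests on all 9 having it, and with fewer at that p none would have passed. The p-values therefore describe these arrays and are not independent support for unequal changes. KRT8, KRT18 and KRT19 have pseudogenes in the genome, and the annotation lists 2 probes for pseudogenes of KRT8, 1 for KRT18 and 1 for KRT19. Probe sequences were not used here, so signal from those copies cannot be told apart from that of the parent genes.

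KRT18, the type I partner of KRT8, was lower by both of its probes. The probe A_24_P42136 read 0.16, 0.34, 0.16 and 0.20 in mock replicates 1 to 4 and -0.99, -0.75, -0.69 and -0.69 in replicates 1 to 4 labelled CFC1. The probe A_32_P151544 read 0.47, 0.48, 0.63 and 0.56 and then -0.23, -0.23, -0.11 and -0.14. Neither probe had overlapping groups. KRT18 was lower on the first probe (difference -0.99, SE 0.0843, adjusted p = 3.726e-05) and on the second (-0.71, SE 0.0574, adjusted p = 2.786e-05). Within arrays the first probe minus the second shifted by -0.28 (exact p = 0.029, adjusted 0.048).

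Of the keratin partners, KRT18 and the KRT8 probe that passed were both lower. KRT8 (A_23_P14072) minus KRT18 within arrays differed between the groups by -0.55 for the first KRT18 probe and by -0.83 for the second (exact p = 0.029 and adjusted 0.048 for both). With the KRT8 probe A_33_P3372368 the same differences had the opposite sign, at 1.10 and 0.82 (exact p = 0.029, adjusted 0.048 for both), and with A_24_P67395 they were 0.78 and 0.50 and did not pass (exact p = 0.257 and 0.429). How KRT8 compared with KRT18 therefore depended on the KRT8 probe. After quantile normalization the order of the first KRT8 probe and KRT18 also depended on the KRT18 probe, with KRT8 at -1.07 and KRT18 at -1.23 and -0.53. KRT19, which can replace KRT18 as the partner of KRT8, had the opposite sign to KRT18 and to the KRT8 probe that passed.

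**Figure D2:**
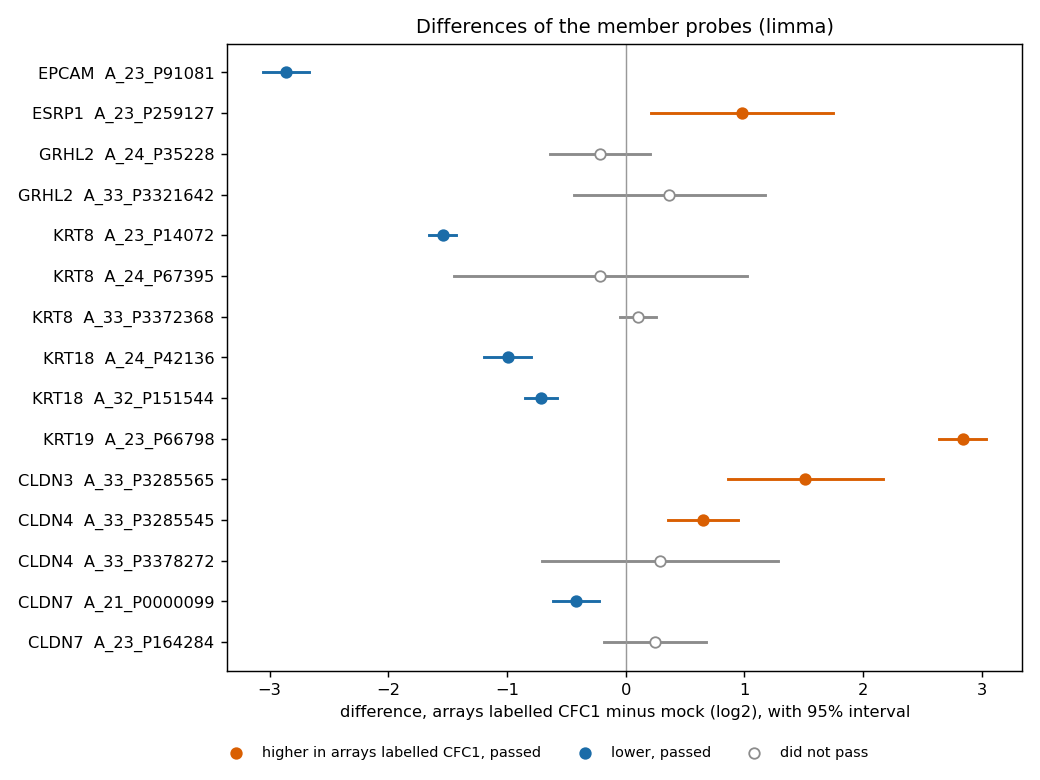
Difference between the groups (horizontal axis, log2, arrays labelled CFC1 minus mock arrays) for each of the 15 member probes, with 95% intervals from limma as lines. Filled points passed the threshold, 4 higher (orange) and 5 lower (blue), and open points did not; the intervals of KRT8 A_24_P67395 and CLDN4 A_33_P3378272 are the widest.

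The claudins are tetraspan proteins whose extracellular loops meet between neighbouring cells. CLDN3 and CLDN4 lie next to each other on chromosome 7, and CLDN7 lies on chromosome 17. Promoter windows of RefSeq (GRCh38.p14), which run from 250 bases before to 50 bases after a start, were at hand for 4 of the 9 members, namely these 3 claudins and KRT8. The 250 bases upstream of CLDN3, CLDN4 and 1 of the 2 starts of CLDN7 are shown because these related genes gave different results on the probes that passed. Of the 2 CLDN7 starts, the one shown is the one with matches, so its count is that of a chosen stretch. Capitals mark matches to the E-box core that ZEB and Snail factors bind, searched as CACCTG on both strands.
CLDN3, chr7:73770271-73770520, minus strand: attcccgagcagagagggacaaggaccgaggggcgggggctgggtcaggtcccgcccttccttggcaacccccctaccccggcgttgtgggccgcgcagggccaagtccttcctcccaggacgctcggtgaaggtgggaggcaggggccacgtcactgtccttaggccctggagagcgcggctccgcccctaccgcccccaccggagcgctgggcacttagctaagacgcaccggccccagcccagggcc
CLDN4, chr7:73830746-73830995, plus strand: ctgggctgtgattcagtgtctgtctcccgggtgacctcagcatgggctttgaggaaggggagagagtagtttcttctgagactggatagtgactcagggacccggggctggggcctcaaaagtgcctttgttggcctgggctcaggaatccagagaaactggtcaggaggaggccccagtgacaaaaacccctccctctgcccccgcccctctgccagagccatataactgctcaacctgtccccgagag
CLDN7, chr17:7262479-7262728, minus strand: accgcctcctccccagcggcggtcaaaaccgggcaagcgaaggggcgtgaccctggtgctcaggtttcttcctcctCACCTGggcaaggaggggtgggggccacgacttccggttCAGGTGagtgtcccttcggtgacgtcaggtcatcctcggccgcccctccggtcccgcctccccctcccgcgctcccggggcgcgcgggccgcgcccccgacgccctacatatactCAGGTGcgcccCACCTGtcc

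The CLDN7 stretch held 4 matches, beginning 174, 135, 20 and 9 bases before the start. Of 35116 promoter windows, 17.5% held at least 1 match in the 250 bases upstream and 0.122% held at least 4. The upstream bases of CLDN3, CLDN4, KRT8 and the other CLDN7 start held 0 matches. Over the whole windows, which add the 50 bases after the start, CLDN3 held 1 match and the CLDN7 start shown held 5. The core bound by grainyhead factors such as GRHL2, searched as AACNGGTT on both strands, was found in 1.49% of upstream stretches and in 0 of the 5 member windows. A match is a run of letters and not a measured site, and the arrays carry no measurement of binding.

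CLDN3 was higher in the arrays labelled CFC1. Its probe (A_33_P3285565) read 0, -0.81, -0.90 and -0.44 in mock replicates 1 to 4 and 1.58, 0.97, 0.84 and 0.52 in replicates 1 to 4 labelled CFC1. The groups did not overlap, but each spread widely, with means of -0.54 ± 0.409 and 0.98 ± 0.443 (SD, n = 4 in each). The difference was 1.51 (SE 0.277, 95% interval 0.86 to 2.16, adjusted p = 0.00279), a 2.85-fold ratio.

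CLDN4 was higher on 1 of its 2 probes. The probe A_33_P3285545 read -0.86, -0.66, -0.84 and -1.01 in the mock arrays and -0.01, 0, -0.39 and -0.39 in the arrays labelled CFC1. Every mock array lay below every array of the other group, and the difference was 0.65 (SE 0.126, adjusted p = 0.0038). The second probe, A_33_P3378272, which is annotated to an Ensembl transcript, ran from -0.77 to 0.67 in mock arrays and from -0.56 to 1.004 in the others. Its difference of 0.29 (95% interval -0.71 to 1.28, adjusted p = 0.612) did not pass, and with the mean of both probes CLDN4 did not pass (0.47, adjusted p = 0.161). The within-array value of CLDN3 minus CLDN4 shifted between the groups by 0.86 for the first CLDN4 probe and by 1.23 for the second (exact p = 0.029, adjusted 0.048 for both).

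CLDN7, a claudin that binds EPCAM in epithelial membranes, differed little. The probe A_21_P0000099 read 0.22, 0.35, 0.25 and 0.38 in the mock arrays and 0.04, -0.16, -0.29 and -0.06 in the arrays labelled CFC1, without overlap. It was lower (difference -0.42, SE 0.0828, adjusted p = 0.00431), a 1.33-fold ratio, the smallest difference among the member probes that passed. The probe A_23_P164284 ran from -0.52 to 0.29 and from -0.04 to 0.45, so that its groups overlapped, and its difference of 0.25 (95% interval -0.18 to 0.68, adjusted p = 0.362) did not pass. Within arrays the first probe minus the second shifted by -0.66 (exact p = 0.029, adjusted 0.048). With the mean of both probes CLDN7 did not pass (-0.08, adjusted p = 0.460).

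ESRP1 passed by a narrow margin. Its probe (A_23_P259127) read -1.67, -1.81, -1.80 and -1.38 in mock replicates 1 to 4 and -1.43, 0.19, -0.57 and -0.94 in replicates 1 to 4 labelled CFC1. The first array labelled CFC1 lay within the mock range, and the other three lay above it, spread over more than 1 unit. The difference was 0.98 (SE 0.326, 95% interval 0.21 to 1.75, adjusted p = 0.0458). The call was lost after quantile normalization, where the difference was 0.19 (adjusted p = 0.825), with a replicate block (adjusted p = 0.0872), with array weights (0.91, adjusted p = 0.0605) and with unmoderated variances (adjusted p = 0.0755). It was also lost without mock replicate 1, 2, 3 or 4 (0.93 to 1.07, adjusted p from 0.0604 to 0.103) and without CFC1 replicate 3 or 4 (0.94 and 1.06, adjusted p = 0.103 and 0.0643).

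GRHL2 did not pass on either probe. The probe A_24_P35228 read -0.06, -0.09, -0.24 and 0.56 in the mock arrays and -0.06, -0.33, -0.27 and -0.03 in the arrays labelled CFC1 (difference -0.21, 95% interval -0.64 to 0.21, adjusted p = 0.400). The probe A_33_P3321642 read -0.38, 0.06, -0.48 and -0.08 and then 1.03, 0.39, -0.51 and -0.32 (difference 0.37, 95% interval -0.44 to 1.17, adjusted p = 0.434). The groups overlapped on both probes, and the estimates had opposite signs. The intervals leave room for a change of more than 2-fold upward on the second probe and of less than 2-fold on the first.

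The scaling of the arrays changed the size of several differences but the sign of none of the 9 that passed. Centring each array on its median moved every member by the same small amount, and setting arrays to their 10 E1A control spots shifted the median difference of all probes from -0.13 to -0.03. Quantile normalization brought EPCAM to -2.26, KRT19 to 2.02 and KRT8 (A_23_P14072) to -1.07, and raised CLDN3 to 1.82. Apart from ESRP1, the member probes that passed also did so under each of these 3 scalings.

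**Figure D3:**
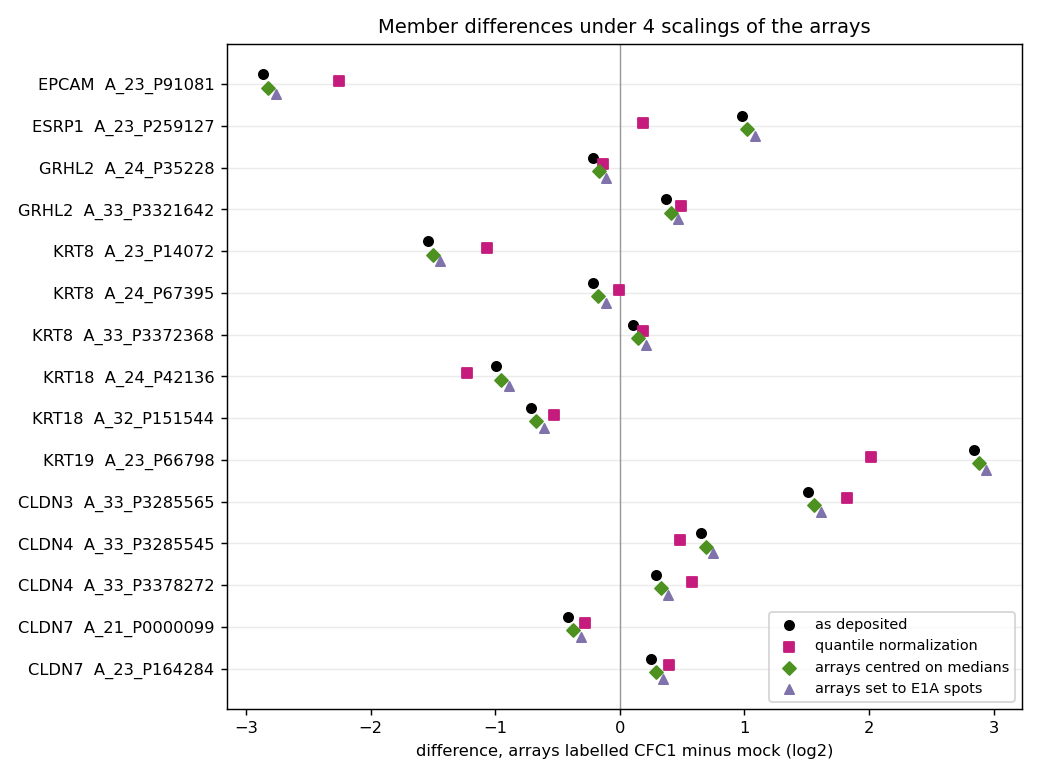
Difference between the groups (horizontal axis, log2, arrays labelled CFC1 minus mock arrays) of the 15 member probes with the values as deposited and under 3 other scalings of the arrays, each with its own marker. ESRP1 moves from 0.98 to 0.19 under quantile normalization, and EPCAM and KRT19 move toward 0 but stay beyond 2 units.

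Genes that work with the members were compared as gene means, fitted over 21524 genes, of which 29.7% passed as higher and 28.2% as lower. The lists were drawn from textbook roles. Among the 11 other epithelial transcription and splicing factors, 2 were higher and 1 was lower, with a list median of -0.17 beside -0.09 for all genes. KLF5, a factor of gut and bladder epithelium, was lower (-1.61), GRHL1, a relative of GRHL2, was higher by 0.68 (its 2 probes at -0.17 and 1.53), and ESRP2, the close relative of ESRP1, was higher by 0.40. Leaving out any of mock replicates 3 and 4 and CFC1 replicates 1 and 2 ended the call of ESRP2 (0.34 to 0.37).

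All 6 repressors of epithelial genes were measured, and 2 were higher and 3 lower, or 4 and 2 after quantile normalization. TWIST2 was higher by 3.18 (mean of 3 probes from 1.12 to 6.82) and ZEB1 by 0.45, whereas ZEB2 (-2.04) and SNAI1 were lower (-1.01, or -0.60 after quantile normalization). The remaining lower one was TWIST1 (-0.26), as the mean of 5 probes that ran from -2.04 to 1.19. Of 4 genes whose splicing ESRP proteins are known to control, CTNND1, which encodes p120 catenin, was lower (-1.12) and ENAH, an actin regulator, was higher by 0.86. FGFR2 and CD44 did not pass (-0.25 and -0.24). The deposited values are per probe and give no measure of exon use.

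Most of the other keratins and claudins did not pass. Of 33 other keratins, 3 were higher, 3 lower and 27 did not pass, with a median of -0.20. KRT17 of stressed and basal epithelium (-3.18) and KRT10 of the upper epidermis (-1.21) were lower, and KRT71, of the hair root sheath, was higher by 1.68. KRT6A, of activated epidermis, was higher by 1.06, but its call was lost with unmoderated variances and on leaving out any of mock replicates 1, 3 and 4 and CFC1 replicates 2 and 4 (0.85 to 1.12). Of 20 other claudins, 0 were higher and 4 lower, with a median of -0.16, and 1 was higher after quantile normalization. The myelin claudin CLDN11 (-1.98), CLDN20 (-1.04), CLDN12 (-0.92) and CLDN24 (-0.71) were lower. The call of CLDN24 did not hold with a replicate block (adjusted p = 0.0694) and under 8 other alternatives (-0.76 to -0.55).

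Of 16 tight junction, adherens junction and polarity genes measured, 4 were higher and 5 lower, shares near the 29.7% and 28.2% of all genes, with a median of -0.18. TJP1, the scaffold ZO-1 that anchors claudins, was higher by 5.36, from between -5.83 and -4.92 in the mock arrays to between -0.16 and 0, and LLGL2, a polarity protein, was higher by 1.19. OCLN, which encodes occludin, was lower (-1.10, or -0.67 after quantile normalization). CDH1, or E-cadherin, which was looked up outside the rule for naming genes, did not pass (-0.14, 95% interval -0.51 to 0.23, adjusted p = 0.466).

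Of 14 genes measured for EPCAM processing and the epithelial surface, 5 were higher and 2 lower, with a median of 0.17. CD9, a tetraspanin that associates with EPCAM, was higher by 6.07, AP1M2, a sorting adaptor of polarised epithelia, by 3.06, PSEN2, a subunit of the protease that releases the EPCAM tail, by 2.01, and MAL2, of apical transport, by 1.65. ADAM17, which cleaves EPCAM outside the membrane, did not pass (-0.05). Of 10 desmosomal plaque and keratin linker genes, 3 were higher and 4 lower, with a median of 0.13. PKP2 (-4.04), PPL (-1.76) and PKP3 (-1.24) were lower, at -6.37, -2.85 and -2.10 after quantile normalization, and PLEC, the linker plectin, was higher by 1.26, with its 2 probes at 0.28 and 2.24. Of 13 other intermediate filament genes, 4 were higher and 5 lower, or 3 lower after quantile normalization, with a median of -0.01. NEFH, the heavy neurofilament subunit, was lower (-3.31), VIM, or vimentin, higher by 2.01 and LMNA, a nuclear lamin, higher by 1.23.

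**Figure D4:**
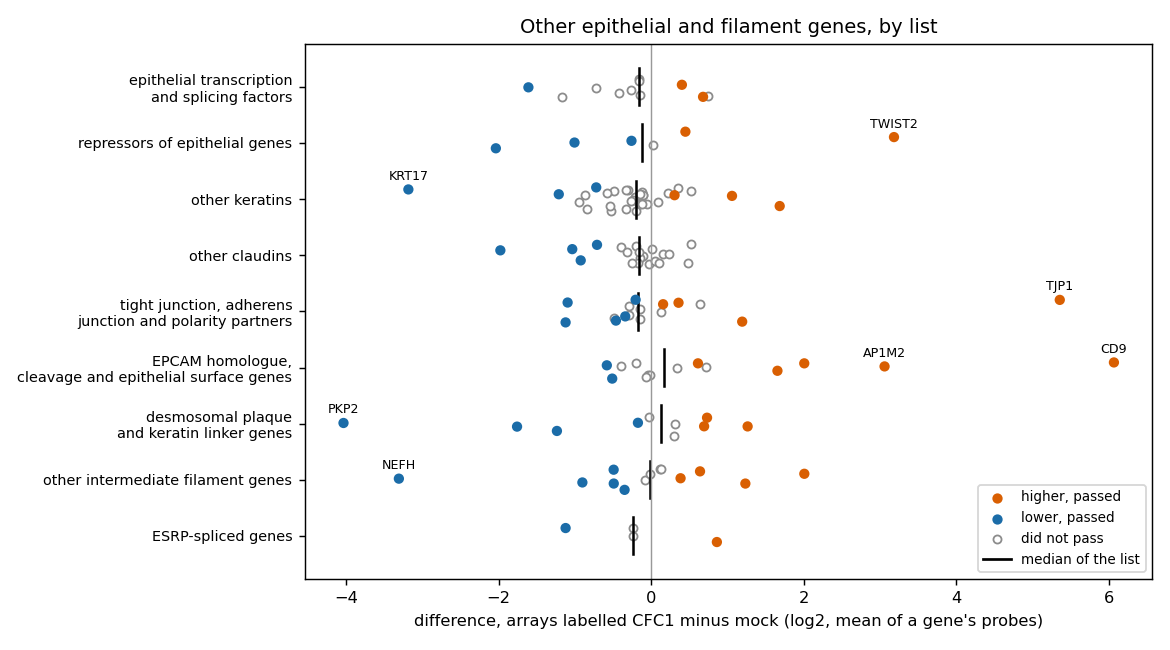
Difference between the groups (horizontal axis, log2, arrays labelled CFC1 minus mock arrays, mean of a gene's probes) for the genes of 9 lists (rows), each point a gene, filled where it passed the threshold, with the list median as a black bar. All list medians lie between -0.24 and 0.17, while single genes such as TJP1, CD9, PKP2 and NEFH lie far from them.

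Markers of the labelled cell type also differed between the groups. Of all genes, 28.2% were lower and 29.7% higher. Of 11 adrenergic neuroblastoma markers measured, 9 were lower and 0 higher, with a median of -1.14, led by STMN2 (-3.92), DDC (-2.51), CHGB (-2.48) and ISL1 (-2.18). Of 10 fibroblast and mural markers 1 was higher and 7 lower, with RGS5 at -3.83, PDGFRA at -2.78, COL3A1 at -1.88 (-1.25 after quantile normalization) and COL1A1 at -1.44. Of 6 Schwann and glial markers 0 were higher and 4 lower, with S100B at -1.35, FABP7 at -1.17, GFAP at -0.90 and SOX10 at -0.88. The 2 probes of S100B stood at -2.55 and -0.15. Of 5 blood markers CD14 was higher by 1.16 and CD68 was lower (-0.42). The calls of FABP7 and CD68 were lost under 8 and 10 alternatives. The values give no level, so it cannot be said whether any of these markers, or the members, was absent. The part of such differences in the results for the members was not tested, and in bulk RNA fewer cells of a type cannot be told apart from less RNA per cell.

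Chromosomal neighbours were described beside the members, without a test. By the RefSeq gene order, the 10 nearest measured genes had medians from -0.29 (GRHL2) to 0.42 (CLDN7). Around EPCAM the 10 neighbours ran from -1.03 to 1.55, with CALM2 at 0.03 and KCNK12 at 1.55 on either side, beside -2.86 for EPCAM itself. Around KRT19 they ran from -3.18, at KRT17, to 0.88, and KRT15 beside KRT19 stood at -0.06. KRT8 and KRT18 are each other's neighbours, and EIF4B on the far side of KRT18 was lower (-0.50). Around CLDN3 and CLDN4, ABHD11 on one side was higher by 0.75 and METTL27 on the other by 0.45. SLC2A4, next to CLDN7, was higher by 2.49.

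The genes with the values nearest to a member over the 8 arrays were found by the root mean square difference, leaving out genes of the Y chromosome. For EPCAM they were PLPPR5 (0.0839) and TNNI3 (0.108), for KRT19 BOK (0.0795) and PHKA1 (0.0937), and for KRT18 SYN2 (0.0497) and COX4I1 (0.057). CLDN3 had TTC39A (0.288) and ZNF417 (0.347), and CLDN4 had the keratin KRT4 (0.145) and CTSE (0.182). ESRP1 had USP43 (0.183) and USP2 (0.332), GRHL2 had FGF16 (0.121) and C12orf54 (0.122), KRT8 had IGSF5 (0.166) and N4BP2L2-IT2 (0.174), and CLDN7 had PRR20B (0.0816) and NCOR1 (0.0835). These distances describe 8 arrays in 2 groups and say nothing of shared control.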

How the data were processed

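Total RNA was labelled with Cyanine3 for one-color Agilent arrays, per the labels' protocols. The authors deposited log values, read here as log2, for 50739 rows per array; feature extraction, scaling, baseline and log base were not named there. After 140 control spots were left out, 31993 of 50599 probes had 1 gene symbol, none had several and 18606 had none. Symbols were updated through RefSeq (GRCh38.p14) by accession, symbol or synonym. Array medians ran from -0.14 to 0.14, and the number of arrays limits the precision.

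Groups were compared over all 8 arrays with limma 3.58.1 (lmFit, then eBayes; R 4.3.3), two-sided, per probe for the members and on gene means for the lists, and the model was tested on simulated data. There it missed many changes in probes of wide spread, and since a first criterion on recovery over all probes was not met, one on probes of low spread replaced it; a member that did not pass is thus not shown to be unchanged. Members and lists were chosen with earlier results of these data known. All members are named, and from each list up to 4 genes that passed with the largest differences; further genes named were chosen after their values were seen. Promoters came from RefSeq. Python 3.11.15 was used for descriptions. The alternatives were a replicate block, 3 scalings, array weights, a variance trend, unmoderated variances, gene means, natural logarithms and leaving out each array. The 7 listed genes without a probe under their symbol were not analysed here. Genes of the Y chromosome were left out of the search for nearest genes, a choice made after values were seen. Within-array differences between probes were added after the data were seen.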

Additional observations from a re-analysis of the deposited data

How the results depend on the processing

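Of 251 alternative values of single member probes, 237 kept their direction or their side of the threshold as reported. Of the others, 10 are those of ESRP1 given above, and 4 came from the mean of a gene's probes, which places all 3 KRT8 probes at -0.55 (adjusted p = 0.0353), against 0.10 for the probe A_33_P3372368 alone. With gene means, 3 member genes were lower, against 5 probes. Of 288 list counts, 278 stayed within 1.5 times. With the replicate block, 3 epithelial transcription and splicing factors were lower instead of 1. Deviations of same-numbered arrays correlated from 0.0953 to 0.197, beside -0.110 to 0.0591 for other numbers. All 8 of 8 arrays correlated best with their own number. The main fit and the permutation tests left this structure out. With the block 21980 of all probes passed, against 21289, and 3 member probes were higher and 5 lower. After quantile normalization 4 repressors and 1 other claudin were higher and 3 intermediate filament genes lower. Leaving out each array gave 1 to 2 epithelial factors higher and 1 to 2 lower, 3 to 5 other keratins lower, and 1 to 2 ESRP-spliced genes lower. The causes of these shifts were not tested. Read as natural logarithms, all differences would be larger with the same p-values. The table has no background flags, so noise near background could not be set apart from change, which was not examined for any probe.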
